A study of Arabidopsis thaliana with 3 samples.

Results

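Surface immune receptors and the kinases that act with them were examined in rosettes of Arabidopsis thaliana, in the lsm1a lsm1b double mutant against the wild type Col-0. The genes were chosen by locus code: FLS2 (AT5G46330), EFR (AT5G20480), LORE (AT1G61380), LYK5 (AT2G33580), CERK1 (AT3G21630), RLP23 (AT2G32680), BAK1 (AT4G33430), SOBIR1 (AT2G31880), BIK1 (AT2G39660) and FRK1 (AT2G19190). Of these 10 genes, 9 were measured, by 11 probes, among 24658 genes in all. LYK5 had no matched probe and is not analysed here. Each locus code carries its chromosome in the digit after AT, and no coordinates are given because the sources used here name no build for the array.

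RNA of both genotypes was labelled with different dyes and hybridised to the same array, which makes each value a within-array ratio, and 3 such arrays are labelled as biological replicates. Cy3 marked the mutant on arrays 1 and 3, whereas on array 2 the dyes were swapped and Cy5 marked it. The labels disagree on the plants, in the same way for both genotypes: the characteristics give an age of 2 weeks, the growth protocol 16 h of light and 8 h of dark at 22 °C, and the descriptions 3 weeks with 1 day at 4 °C. They name no mutant alleles and no microbe or elicitor, and the disrupted genes LSM1A and LSM1B, whose products belong to a cytoplasmic complex that promotes messenger RNA decapping, are not analysed here. Ratios are given as log2 values of lsm1a lsm1b over Col-0, a direction that is assumed and not settled by the sources used here. Channel 1 of the labels holds the mutant on every array, but the titles name Col-0 first, and the usual Cy5 over Cy3 ratio would put Col-0 on top on arrays 1 and 3. If the ratio runs the other way, each sign turns, higher and lower change places, as do highest and lowest arrays and genes, and sizes and p-values stay. A fold is given as the mean ratio turned back from the log2 scale, always above 1.

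Plant cells carry receptors in the plasma membrane that bind conserved molecules of microbes, such as a flagellin peptide, chitin or bacterial fatty acids. Receptor kinases with leucine-rich repeats recruit the co-receptor kinase BAK1 on binding, receptor-like proteins without a kinase domain depend on the adaptor kinase SOBIR1, and cytoplasmic kinases such as BIK1 pass the signal on. Calcium influx, reactive oxygen from the oxidase RBOHD, and MAP kinase cascades follow, and genes such as FRK1 are induced. Several of these transcripts are known to be raised by elicitors and salicylic acid.

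None of the 9 measured genes passed the threshold (limma, adjusted p below 0.05 over all genes), against 1.21% of all genes. That background itself depended on the arrays and the fit, since 0 genes passed without array 1, 2 or 3. With all 3 arrays kept, 0 genes passed with a dye term or with trend and robust moderation, and 76 with array spreads equalised. The largest ratio was that of LORE, the receptor kinase for bacterial 3-hydroxy fatty acids, at 2.17-fold (1.12 ± 0.38 on the log2 scale, mean ± SD of n = 3 arrays; limma adjusted p = 0.0671). FRK1, a receptor-like kinase gene used as a marker of flagellin responses, stood at 1.73-fold (0.79 ± 0.39; adjusted p = 0.105). FLS2, the flagellin receptor gene, was the only one below 0 on all 3 arrays, at 1.47-fold lower (-0.56 ± 0.13; adjusted p = 0.0778). At an unadjusted p under 0.05 there were 2 higher genes (LORE and FRK1) and 1 lower gene (FLS2), so 3 of 9, where 20.1% of all genes met that rule, 10.6% higher and 9.48% lower. With a dye term these counts were 5 higher, CERK1, SOBIR1 and EFR being added, and 1 lower, where 14.1% of all genes were higher and 11.7% lower. Without array 2 they were 2 higher and 2 lower, where 15.5% and 14.3% of all genes were.

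**Figure D1:**
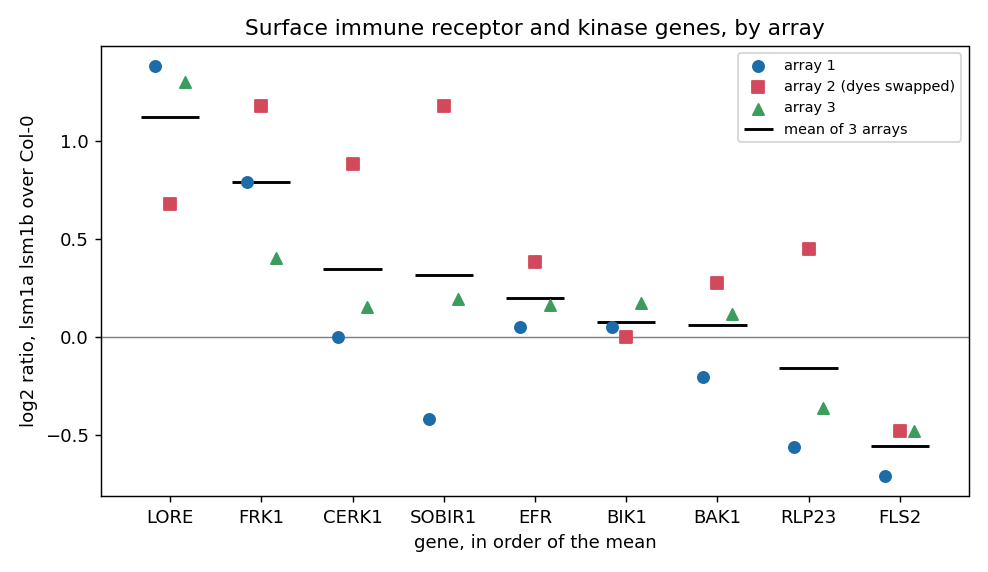
Log2 ratios of lsm1a lsm1b over Col-0 (vertical axis) for the 9 measured receptor and kinase genes, in order of their mean, with 1 symbol per array and a bar at the mean of 3 arrays. LORE and FRK1 lie above 0 on every array, FLS2 lies below 0 on every array, and SOBIR1 has the widest spread, from -0.42 to 1.18.

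Among the receptors, LORE read 1.38, 0.68 and 1.30 on arrays 1, 2 and 3. The value of the dye-swapped array 2 was the lowest, and both arrays of the other orientation lay close together. As large or larger absolute means were found for 477 other genes (1.93% of all), and 160 of them passed the threshold. The limma 95% interval of the LORE mean, which is not adjusted for the number of genes, ran from 0.67 to 1.57.

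FLS2 read -0.71, -0.48 and -0.48. Its SD of 0.13 was below the median SD of 0.185 over genes, and both dye orientations gave almost the same ratio. The 95% interval ran from -0.81 to -0.30, and 9.46% of all genes had an absolute mean at least as large. The smallest absolute mean among genes that passed the threshold was 0.70, which FLS2 did not reach. The symbol FLS2 is shared by a flavonol synthase gene (AT5G63580), whose probe read -1.11, -1.07 and -0.47. It was kept apart by its accession, since averaging both probes under the one symbol would have put FLS2 at -0.72 (adjusted p = 0.0735).

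EFR, the receptor for the bacterial elongation factor EF-Tu, is built like FLS2 and signals through the same co-receptor, but its ratios were 0.05, 0.38 and 0.16. All lay above 0, with a mean of 0.20 ± 0.17 (adjusted p = 0.395) and a 95% interval from -0.08 to 0.47. Within each array FLS2 stood below EFR, by -0.76, -0.86 and -0.64, a mean difference of -0.75 ± 0.11 (exact sign-flip permutation p = 0.25, two-sided, the smallest that 3 arrays allow). Of the 4 pairs of genes compared this way, with probes averaged per gene, each kept 1 sign on all 3 arrays. Each therefore gave this p, which Benjamini-Hochberg adjustment over the 4 would leave the same. For FLS2 with EFR and with FRK1 the constant sign already follows from the signs of the single genes. FLS2 is also in the pair with BAK1, so the pairs are not independent.

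CERK1, a LysM receptor kinase needed for chitin responses, read 0, 0.88 and 0.15. Only array 2 was clearly above 0, and the mean of 0.34 ± 0.47 was smaller than its SD (adjusted p = 0.445; 95% interval -0.18 to 0.87). Its known partner in chitin binding, LYK5, is the gene without a probe.

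RLP23, a receptor-like protein without a kinase domain that detects a peptide of NLP proteins from microbes, read -0.57, 0.45 and -0.37 as the average of its 2 probes (mean -0.16 ± 0.54; adjusted p = 0.821). The probes did not behave alike. Probe A_84_P20114 read -1.04, 0.89 and -0.73, with opposite signs in the 2 dye orientations. Probe A_84_P836180 read -0.09, 0.01 and 0, all within the largest absolute ratios of the 55 control features, which were 0.39, 0.35 and 0.26 on the 3 arrays. Which probe follows the transcript was not tested.

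Averaged per gene, the co-receptor and adaptor kinases BAK1 and SOBIR1 were both below 0 on array 1 and above 0 on arrays 2 and 3. BAK1, which pairs with FLS2 and EFR, read -0.21, 0.28 and 0.12 as the average of 2 probes (mean 0.06 ± 0.24; adjusted p = 0.896). One of its probes, A_84_P12932, was above 0 on all arrays at 0.12, 0.37 and 0.18, and the other, A_84_P819394, read -0.53, 0.18 and 0.05. FLS2 stood below BAK1 on each array, by a mean of -0.62 ± 0.13 (exact sign-flip permutation p = 0.25). SOBIR1, the constitutive partner of RLP23, read -0.42, 1.18 and 0.19. It crossed 0 between arrays, and its SD of 0.81 (mean 0.32; adjusted p = 0.719) was at percentile 98.04 of all genes. The interval of -0.54 to 1.17 includes a 2-fold higher level. SOBIR1 stood above the average of the RLP23 probes on each array, by 0.145, 0.73 and 0.555 (mean 0.48 ± 0.30; exact sign-flip permutation p = 0.25). This depended on the probe: on array 1, SOBIR1 at -0.42 lay below the RLP23 probe A_84_P836180 at -0.09.

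BIK1, the cytoplasmic kinase that phosphorylates RBOHD after receptor activation, had the narrowest spread, at 0.05, 0 and 0.17. Its mean was 0.07 ± 0.09 (adjusted p = 0.773), and the 95% interval of -0.16 to 0.30 excludes a 2-fold difference in either direction. FRK1, the induced gene of the set, read 0.79, 1.18 and 0.40. All 3 values were above 0, highest on array 2 and lowest on array 3, and the 95% interval ran from 0.34 to 1.24. Absolute means at least as large were found for 1109 other genes, of which 270 passed. FRK1 stood above FLS2 by 1.5, 1.66 and 0.88 on the 3 arrays (mean 1.35 ± 0.41; exact sign-flip permutation p = 0.25), so the flagellin receptor gene and this flagellin response marker lay on opposite sides of 0 throughout.

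In order of the mean ratio the genes ran LORE, FRK1, CERK1, SOBIR1, EFR, BIK1, BAK1, RLP23 and FLS2. Each of the 8 gaps between neighbours in this order was smaller than the larger SD of the pair, so only genes further apart in the order are separated by more than their spread. The median of the 9 means was 0.20, against 0.01 over all genes, and the median SD was 0.38 against 0.185. By sign, 3 of 9 genes (LORE, FRK1 and EFR) were above 0 on all arrays, where 19.7% of all genes were, and 1 of 9 was below 0 on all arrays, where 18% were. Probe by probe, 0 of 11 passed the threshold over 43601 probes (limma; 0.626% of all probes did), and 3 of 11, the single probes of LORE, FRK1 and FLS2, had an unadjusted p under 0.05, where 18% of all probes did (8.97% higher, 9% lower). Probe means of a gene lay more than 1 apart in 2.44% of the genes with several probes, and in neither RLP23 nor BAK1.

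**Figure D2:**
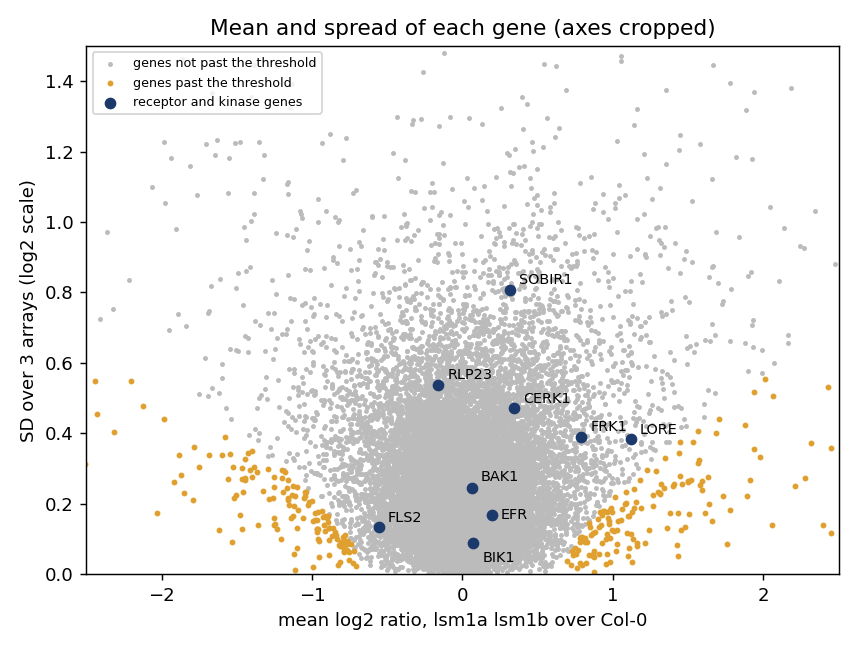
Mean log2 ratio (horizontal axis) and SD over 3 arrays (vertical axis, log2 scale) of each gene, with genes past the threshold in orange and the 9 receptor and kinase genes labelled; genes beyond the axes are not shown. LORE and FRK1 have means like those of genes that passed but SDs of 0.38 and 0.39, while FLS2 has an SD of 0.13 and a smaller mean of -0.56.

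The arrays differed in these genes. Over all genes, arrays 1 and 3 correlated at r = 0.745 (Spearman's rho 0.696), and array 2 with them at r = 0.427 and 0.452 (rho 0.157 and 0.226). This describes genes of the same arrays, which are not independent replicates. Array 2 differs both in its dye orientation and in its plants, which cannot be told apart. Array 2 gave the highest ratio for 6 of the 9 genes (FRK1, CERK1, SOBIR1, EFR, BAK1 and RLP23), where it did so for 41.6% of all genes. It gave the lowest for 2 of 9 (LORE and BIK1), where it did so for 37.9% of all genes, and these 2 counts change places if the ratio runs the other way. The median of the 9 ratios was 0, 0.45 and 0.16 on arrays 1, 2 and 3, against 0.01, 0.01 and 0 over all genes.

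SOBIR1 had the largest such difference, 1.295 higher on array 2 than the mean of arrays 1 and 3. RLP23 was 0.915 higher, CERK1 0.805 higher and FRK1 0.585 higher on array 2, whereas LORE was lower there (-0.66). A dye term in the limma fit, which leaves 1 residual degree of freedom, called none of these differences (adjusted p = 0.214 for RLP23, CERK1 and LORE and 0.228 for SOBIR1). It called 0 of all 24658 genes, and 19.2% of all genes had an unadjusted p under 0.05, as had these 4 of the 9. Averaging the 2 dye orientations with equal weight gave LORE 1.01 (adjusted p = 0.0705), FRK1 0.89 (0.0801), SOBIR1 0.53 (0.185), CERK1 0.48 (0.0882) and FLS2 -0.54 (0.0903).

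**Figure D3:**
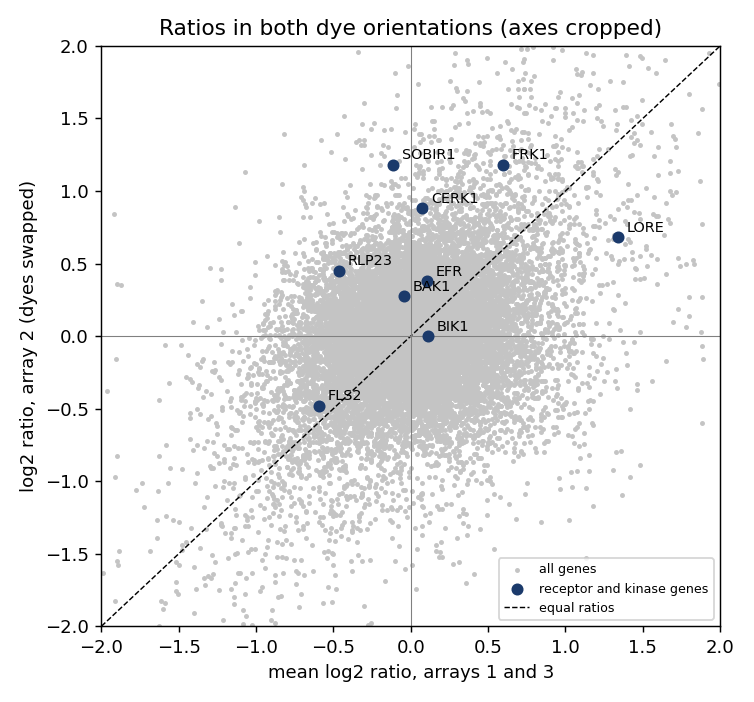
Log2 ratio on the dye-swapped array 2 (vertical axis) against the mean log2 ratio of arrays 1 and 3 (horizontal axis) for all genes in grey and the 9 receptor and kinase genes labelled; the dashed line marks equal ratios, and genes beyond the axes are not shown. FLS2, BIK1, EFR and BAK1 lie within 0.32 of the line, SOBIR1, RLP23, CERK1 and FRK1 above it, and LORE below it.

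Markers of other organs moved with array 2 in part. The 4 flower markers AP1, AP3, AG and PI, none past the threshold, were all highest on array 2, where 41.6% of all genes were. Their medians were -0.12, 0.53 and -0.02 on arrays 1, 2 and 3, and their means lay between -0.05 and 0.30. Medians of the 3 measured root markers were -0.23, 0.025 and -0.10 and those of the 2 seed markers -0.24, -0.0025 and -0.0675. Array 2 was highest in 2 of the root markers and lowest in the other, PHO1, at 0.125, -0.145 and 0.46. Ratios do not show whether these markers are present, and their part in the receptor values was not tested. In a whole rosette, fewer cells of a type and less RNA per cell cannot be told apart.

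The rest of the surface immune pathway was taken from 10 lists with 102 genes, of which 93 were measured. None of the 93 passed the threshold (limma), where 1.21% of all genes did. At an unadjusted p under 0.05, 22 were higher and 8 lower, where 10.6% and 9.48% of all genes were. With 1 array left out, both these counts and the shares over all genes changed. Without array 1 they were 17 and 1, where 6.31% and 5.07% of all genes were. Without array 3 they were 11 and 2, where 5.36% and 4.96% were. They were 17 and 13 without array 2, where 15.5% and 14.3% of all genes were, and 33 and 10 with a dye term, where 14.1% and 11.7% were. Of the 93 genes 31 were above 0 and 12 below 0 on all arrays, where 19.7% and 18% of all genes were. The median of the 93 means was 0.06. The 2 genes with the largest absolute mean of each list are named below.

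Other receptor genes spread to both sides of 0, with 7 means above and 7 below among 14 measured. WAK1, a wall-associated receptor kinase that senses pectin fragments, read 0.35, 1.76 and 1.03 (mean 1.05 ± 0.71; adjusted p = 0.15), and RLP1 had a mean of 0.59 ± 0.37. The co-receptor and adaptor genes had a median of -0.105 over 5 measured. SERK2, a close relative of BAK1, read -0.55, -0.29 and -0.40 (mean -0.41 ± 0.13; adjusted p = 0.115), and SERK5 stood at -0.18 ± 0.45. Array 2 gave the highest value in 11 of the 14 receptor genes and in 3 of the 5 co-receptor and adaptor genes. It did so for 41.6% of all genes.

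Receptor-like cytoplasmic kinases, the class of BIK1, had a median SD of 0.101, against 0.185 over all genes. Their medians were 0.21, 0.225 and 0.18 on the 3 arrays. BSK1 (SD 0.291) and PBS1 (SD 0.225), both named outside the rule, varied more and crossed 0. PBL27 (AT5G18610), which links CERK1 to MAP kinases, read 0.70, 0.53 and 0.56 (mean 0.60 ± 0.09; adjusted p = 0.065), the lowest adjusted p of the 93 genes. AT3G09830 stood at 0.55 ± 0.20, while PBL1, the closest relative of BIK1, read 0.15, 0.19 and 0.195. The last of these genes is named outside the rule, after its values were seen. Of the 8 measured genes, 4 had an unadjusted p under 0.05 on the higher side and 1 on the lower side, where 10.6% and 9.48% of all genes did.

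Negative regulators of the receptor complexes held genes on both sides. BIR1, a receptor-like kinase that binds BAK1 and whose loss phenotype needs SOBIR1, read 0.48, 0.90 and 0.58 (mean 0.65 ± 0.22; adjusted p = 0.0811). PUB24, a ubiquitin ligase gene of a family that dampens elicitor responses, stood at 0.71 ± 0.42. The other PUB genes of the list lay on both sides of 0 and are named outside the rule. PUB12 stood at 0.42, PUB13 at 0.17, PUB25 at -0.57, PUB26 at -0.56, PUB22 at -0.25 and PUB23 at -0.11. Of 12 measured genes, 3 had an unadjusted p under 0.05 on the higher and 2 on the lower side, where 10.6% and 9.48% of all genes did.

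Downstream of the receptors, the oxidase, G protein and calcium channel genes had a median of -0.07 over 7 measured. DND1, which encodes the channel CNGC2, read -0.73, -0.51 and -0.57 (mean -0.60 ± 0.11; adjusted p = 0.0677), a pattern of sign and spread like that of FLS2, and the G protein gene XLG2 stood at 0.47 ± 0.37. The 12 MAP kinase cascade genes had a median of 0.14, with medians of -0.29, 0.50 and 0.09 on arrays 1, 2 and 3. They were highest on array 2 in 10 cases, where 41.6% of all genes were. MPK11, a MAP kinase gene induced by flagellin, read 0.12, 1.58 and 1.25 (mean 0.98 ± 0.77; adjusted p = 0.186), and MKK2 stood at 0.31 ± 0.29.

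The 4 calcium-dependent kinase genes had medians of 0.575, 0.24 and 0.61. Array 2 was highest in 0 and lowest in 2 of them, where it was in 41.6% and 37.9% of all genes. CPK6 read 1.085, 0.555 and 0.685 (mean 0.78 ± 0.28; adjusted p = 0.0788) and CPK5 stood at 0.55 ± 0.40; both kinases act in early elicitor signalling. Means of the 6 genes on the list of peptide precursors all lay above 0, where 12762 of 24658 genes had such means. They ran from 0.09 to 0.67, with AT4G37290 at 0.67 ± 0.38 and AT4G28460 at 0.40 ± 0.44. Of the 6, 3 were above 0 on all arrays, where 19.7% of all genes were. RALF23, named outside the rule, crossed 0 at 0.80, -0.58 and 0.61.

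Early response genes, the class to which FRK1 belongs, had a median of 0.63 over 7 measured, with 0.16, 1.09 and 0.71 on the 3 arrays. YLS9, also called NHL10, another flagellin marker, read -0.12, 2.60 and 1.58 (mean 1.35 ± 1.37; adjusted p = 0.271), so array 1 did not share the high values. AT1G26380 stood at 0.93 ± 0.32 (adjusted p = 0.0709), but its 2 probes differed by 1.93. Of the 7 genes, 3 had an unadjusted p under 0.05, all on the higher side, where 10.6% of all genes did. The other 4 include 3 with means below 0, PHI-1 at -0.26, AT2G17740 at -0.04 and WRKY29 at -0.03, which are named outside the rule.

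**Figure D4:**
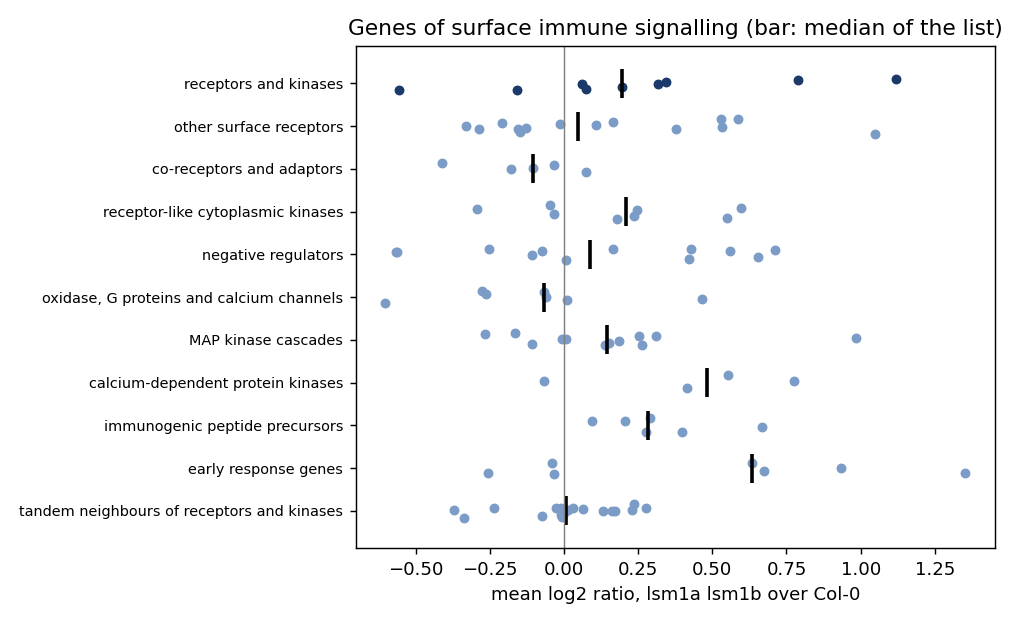
Mean log2 ratio of each gene (horizontal axis) for the 9 receptor and kinase genes (dark points, top row) and for 10 lists of other surface immune signalling genes (light points); bars mark medians, and vertical scatter within a row has no meaning. Early response and calcium-dependent kinase genes have the highest medians, 0.63 and 0.48, and no gene shown passed the threshold.

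Several of these genes lie in tandem groups of related genes, whose probes can share signal. LORE belongs to a row of S-domain receptor kinase genes on chromosome 1, and 10 of 11 listed neighbours were measured. Their means ran from -0.37 to 0.28, with a median of 0.04, so LORE at 1.12 lay above the highest of them, a difference that was not tested. AT1G61370, the next gene of the row, read 0.32, 0.18 and 0.33 (mean 0.28 ± 0.08; adjusted p = 0.186) and is named outside the rule. AT1G61500 had the lowest ratio of the row, -0.37 ± 0.09 (adjusted p = 0.121). Both listed neighbours of FRK1 lay closer to 0 than FRK1, AT2G19210 at 0.24 ± 0.14 and AT2G19230 at -0.03 ± 0.07, each also named outside the rule. Of the 6 RLP genes near RLP23, RLP26 was the lowest at -0.34 ± 0.28. Array 2 was highest in 4 of the 6, where it was in 41.6% of all genes.

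**Figure D5:**
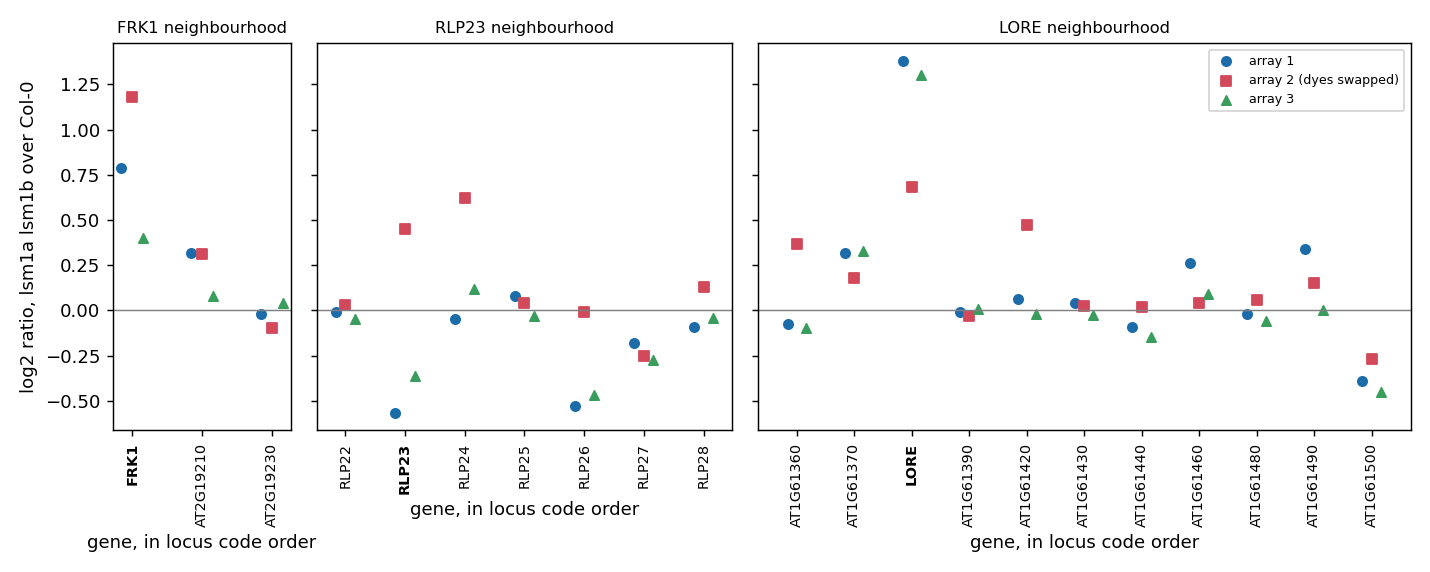
Log2 ratios (vertical axis) on each array for FRK1, RLP23 and LORE and the measured genes listed from their tandem groups, in locus code order. LORE lies between 0.68 and 1.38 and its neighbours between -0.45 and 0.475, and RLP23 is above 0 on array 2 alone.

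The genes most like LORE over the 3 arrays, by Euclidean distance between log2 ratios, were ACR1 (distance 0.088; 1.30, 0.70 and 1.33), AT4G23680 (0.109) and AT5G19875 (0.116). In all, 6 genes lay within a distance of 0.2 of LORE. Their means and spreads follow from the choice by likeness and are not given as results.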

How the data were processed

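The authors deposited 1 normalized log2 ratio per probe and array. The submitters' processing notes name limma, without a version; how background was corrected, which normalization was run and which way the ratio points are not stated in them. The log base was assumed to be 2, as limma writes its ratios, and column medians were 0, 0.01 and -0.01. Without intensities, dim probes went unrecognised. Precision is limited by the number of arrays. The mutant was taken as the numerator because channel 1 of the labels holds the mutant under either dye, although the titles name Col-0 first. The dye-swapped array correlated above 0 with the others, weakly by rank, so the ratios were taken as turned one way; neither reading could be checked on the disrupted genes.

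Of 43601 probes that are not controls, 34342 carry 1 symbol in the (possibly dated) platform annotation, 0 several and 9259 none. Through the RefSeq gene table (assembly TAIR10.1), accessions named 32243 and symbols 2035 more, 39 with conflicting names were dropped, and 25 matched nothing. Within an array, probes of the same gene were averaged. The 24658 gene means were compared with 0 in an intercept-only, two-sided fit (limma 3.58.1 under R 4.3.3, lmFit then eBayes), with Benjamini-Hochberg adjustment and a threshold of 0.05; the fit was tested on simulated data. Alternatives were 1 array left out, a dye term, each dye orientation, other probe summaries, scalings, moderation and gene names, and genes with probe means over 1 apart left out. The genes and lists were chosen with earlier results of these data known. Named pathway genes are those past the threshold of each list, or otherwise the 2 with the largest absolute mean; for the receptor or kinase gene with the largest absolute mean, the 3 nearest genes by Euclidean distance are named.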

Additional observations from a re-analysis of the deposited data

How the results depend on the processing

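None of the 9 receptor and kinase genes passed the threshold under any alternative that gave a test, nor did any of their 11 probes under the 7 alternatives run on probes. LORE, FRK1, FLS2, CERK1, EFR and BIK1 kept their sign in all of these tests, but with 1 array left out CERK1 ranged from 0.075 to 0.515, EFR from 0.105 to 0.27 and BIK1 from 0.025 to 0.11. Over all alternatives with a test, LORE ranged from 0.99 to 1.34 (limma adjusted p 0.0547 to 0.346) and FRK1 from 0.60 to 0.985 (0.0801 to 0.423). FLS2 ranged from -0.72 to -0.48 (limma adjusted p 0.0612 to 0.386). Its -0.72 came from platform gene names, which average in the flavonol synthase probe, and with 1 array left out it ranged from -0.595 to -0.48. With 1 replicate left out, RLP23 ranged from -0.465 to 0.0425, BAK1 from -0.045 to 0.195 and SOBIR1 from -0.115 to 0.685. The sign turned without replicate 1 for RLP23 and without replicate 2, the fit of arrays 1 and 3, for BAK1 and SOBIR1; none of these means was called. Of the 93 pathway genes, 3 passed (limma) with the least variable probe of each gene, where 652 of all 24658 genes passed. This setting by construction favours small SDs. The 3 were CPK6 (0.70, adjusted p = 0.041), AT3G09830 (0.57, adjusted p = 0.0476) and PBL27 (0.60, adjusted p = 0.0493). Over all genes, 298 passed. The count was 0 without replicate 1, 2 or 3, with arrays 1 and 3, with a dye term, and with trend and robust moderation, 76 with array spreads equalised and 652 with the least variable probe. In the settings with a count of 0 (limma), 1321 to 3813 genes were higher and 1223 to 3514 lower at an unadjusted p under 0.05. Each array holds both genotypes, so the test of its ratio against 0 is already the paired comparison, and there is 1 group of arrays. Replicate number, plants and dye orientation cannot be separated with 3 arrays.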
